A study of Mus musculus with 48 samples.

Results

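The genes of the cytoplasmic ribosomal proteins were chosen by symbol: Rpl or Rps with a number and an optional paralog ending, Rplp0 to Rplp2 of the stalk, and Rpsa. This rule found 89 of the 54331 genes in the deposited tables, 53 named for the large and 36 for the small subunit, and 83 of them are annotated as protein-coding. The values come from 48 mouse RNA-seq libraries in 15 groups, which follow RNA of retinal ganglion cells, the neurons whose axons form the optic nerve, out to 2 brain targets, the superior colliculus (SC) of the midbrain and the lateral geniculate nucleus of the thalamus (LGN). In EU libraries, RNA labelled by the uridine analog 5-ethynyl uridine, given into the eye, was captured through a biotin handle, and colliculi of 3 animals were pooled for each EU sample. In axon-TRAP libraries, RNA was bound to tagged ribosomes taken from the same targets; the labels name neither the tag nor its driver.

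Axon-TRAP of the SC covered postnatal day 14 (P14) mice labelled fmr1ko (3 libraries), wild-type P14 mice (5 libraries) and wild-type P10 mice (3 libraries). Axon-TRAP of the LGN covered wild-type P14 mice (3 libraries). EU capture from the SC covered sarm1ko mice with axotomy and a 7-day chase from P14 (3 libraries) and P14 mice labelled fmr1ko (3 libraries). It also covered wild-type P10 mice with a 4-day chase (3 libraries), and wild-type mice at P10 (3 libraries), P14 (5 libraries) and 8 weeks (3 libraries). EU capture from the LGN of wild-type P14 mice gave 2 libraries. Cell bodies were represented by P14 retinal ganglion cells purified by immunopanning, with EU capture (3 libraries) or without it (3 libraries). Sorted eye cells came from P14 mice labelled fmr1ko (3 libraries) and from wild-type P14 mice (3 libraries). Beyond the pooled colliculi, nothing states that replicates came from separate animals, so the spread behind each p-value may be partly technical.

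Ribosomal proteins are needed in about equal amounts, one copy of nearly each per ribosome, and most are added to the particle in the nucleolus of the cell body. Their mRNAs are among the most abundant of any cell and typically begin with a C followed by a run of pyrimidines, the terminal oligopyrimidine (TOP) motif, through which mTORC1 signalling and LARP1 set their translation. In axons of several kinds of neuron, mRNAs of ribosomal proteins are known to be transported and translated far from the nucleolus.

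The first bases of members on which the results turn are shown because this start is the feature the family is known for. Capitals mark the pyrimidine run at the first base; the coordinates are on GRCm38 and the starts are those of annotated GENCODE M21 transcripts. Rps24, at chr14:24490718-24490742 on the plus strand, and Rps2, at chr17:24720110-24720134 on the plus strand, had long runs.
Rps24: CTCTTTTCCTCCTCTCCagctccgg
Rps2: CTTCTTCTTCTTCgggagaacacgt
Rpl32, at chr6:115808723-115808747 on the minus strand, and Rps27, at chr3:90213624-90213648 on the minus strand, also began with such a run. So did an annotated transcript of Rps15a, at chr7:118115232-118115256 on the minus strand. That transcript starts inside the gene (chr7:118104372-118116188) and may not mark its main start. The RefSeq start of Rps15a, searched below, lay apart from it, in a window at chr7:118116130-118116159.
Rpl32: CTTCCTTCTTCCTCggcgctgccta
Rps27: CCTTTCCggcggtgacgacctccct
Rps15a: CTTTCCacagccaccatggtgcgaa
The annotated starts of Rpl7, at chr1:16104638-16104662 on the minus strand, and of Rplp1, at chr9:61914518-61914542 on the minus strand, fell outside the search, with a short run and no run at the first base.
Rpl7: CCCagagctgacgaggtgtccccac
Rplp1: gatcttttcctcagctgccgccaag
A C followed by at least 4 C or T bases on the transcribed strand stood at the first base of 22 of the 83 members with a protein-coding transcript (26.5%), against 1120 of 21718 protein-coding genes (5.2%). It was found in 10 of 51 large-subunit genes (19.6%) and 12 of 32 small-subunit genes (37.5%). An annotated start can miss the true one by some bases, so the RefSeq starts (GRCm38.p6) were also searched within 5 bases for a run of at least 8 C or T bases that opens with C. This found 22 of the 64 members matched there (34.4%), against 1398 of 27025 genes (5.2%). Among them were Rplp2 and Rps6, in windows on chr7:141447639-141447668 (plus strand) and chr4:86857350-86857379 (minus strand), and Rpl27a on chr7:109519183-109519212 (plus strand), in which capitals again mark the run.
Rplp2: gtcagcgtCTTCCTTTCgccgccggacgcc
Rps6: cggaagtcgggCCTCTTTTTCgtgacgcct
Rpl27a: ttcgtgagCTCCTCCCTTTTCCCTTTCTgc

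Several libraries went against their labels or stood apart. Library totals were between 2558141 and 48263706 estimated counts (median 22212787). Fmr1 was at 12.2, 2.3 and 15.4 TPM (transcripts scaled by length and by library total) in the SC EU libraries labelled fmr1ko. It was at 0.8, 1.2 and 0.4 TPM in wild-type P14 replicates 3 to 5 and at 0.0 and 7.0 TPM in replicates 1 and 2. Its level thus did not bear out the label, although a value for the whole gene cannot show which exon is disrupted. Sarm1 was at 2.5, 7.6 and 0.8 TPM in sarm1ko libraries, against 25.4, 39.6 and 16.4 TPM in wild-type P14 SC EU replicates 3 to 5. Replicates 1 and 2 held 4.8 and 26.0 TPM of it. Replicate 2 of the SC TRAP libraries labelled fmr1ko held 84030 TPM of rod photoreceptor markers, against at most 38.4 TPM in wild-type P14 SC TRAP libraries. The sorted eye cells, whose labels name no cell type, held 68757 to 120538 TPM of rod markers and at most 345 TPM of retinal ganglion cell markers. The immunopanned cells with EU capture held 188 to 463 TPM of retinal ganglion cell markers and 3518 to 82250 TPM of rod markers. Immunopanned cells without EU capture held 35.5 to 111 TPM of retinal ganglion cell markers, and lens markers took 13, 417000 and 447600 TPM in replicates 1 to 3, so neither immunopanned group was dominated by RNA of the cells named on its label. Replicate 1 of that group stood apart, with 67 members above 0. In each wild-type P14 SC library, myelin markers (4673 to 22101 TPM in TRAP and 6740 to 10879 TPM in EU libraries) exceeded retinal ganglion cell markers (1851 to 4296 TPM in TRAP and 3702 to 5859 TPM in EU libraries), so values of these libraries are not those of axonal RNA alone. The wild-type P14 SC libraries come from separate title-code series, and replicates 3 to 5 were used against other SC groups, and replicates 1 and 2 against the LGN.

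Ribosomal protein mRNAs made up their largest share of the transcript pool in P10 SC libraries. The summed share of TPM was 15.2% ± 2.66 in SC TRAP libraries at P10 and 13.9% ± 1.98 in SC EU libraries at P10 (SD, n = 3 each). Sorted eye cells labelled fmr1ko followed with 12.5% ± 1.14 (SD, n = 3). Then came LGN TRAP with 8.74% ± 2.28, SC EU at P10 with chase with 8.67% ± 2.24 (SD, n = 3 each), and SC TRAP at P14 with 8.12% ± 2.15 (SD, n = 5). The share was 7.03% ± 5.99 in SC EU libraries at 8 weeks (SD, n = 3), where single libraries held 6.37%, 1.39% and 13.3%. The next groups lay close together, with 6.34% ± 2.55 in SC EU at P14 (SD, n = 5), 6.34% ± 0.977 in SC TRAP labelled fmr1ko, 6.26% ± 2.26 in SC EU labelled fmr1ko, 6.19% ± 0.937 in wild-type sorted cells and 5.30% ± 2.0 in EU-captured immunopanned cells (SD, n = 3 each). The lowest shares were 2.77% ± 1.03 in LGN EU (SD, n = 2), 2.23% ± 1.96 in sarm1ko EU and 0.887% ± 0.736 in immunopanned cells without capture (SD, n = 3 each), where single libraries held 0.048%, 1.42% and 1.19%. Each pair of neighbours in this order had overlapping libraries, except sorted cells labelled fmr1ko (11.3 to 13.5%) and LGN TRAP (6.14 to 10.4%).

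**Figure D1:**
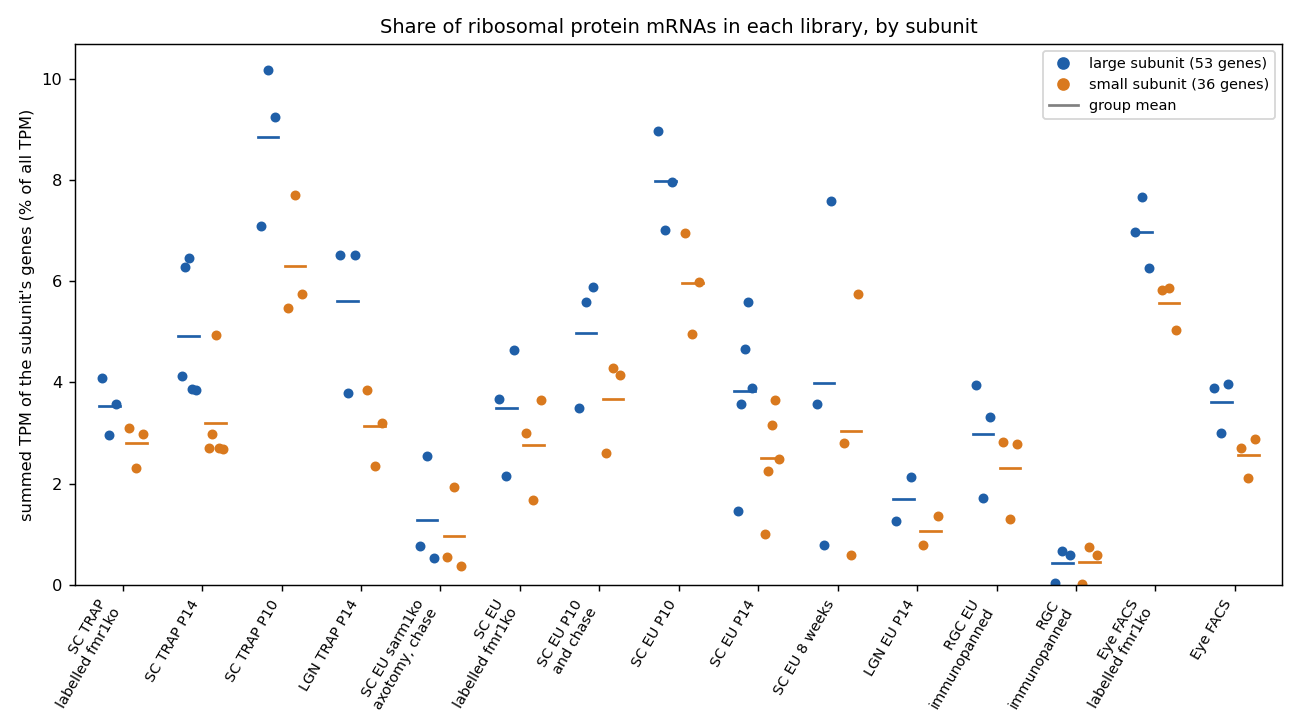
Summed share of TPM (percent) of large-subunit and of small-subunit ribosomal protein genes in each of the 48 libraries, by group; points are libraries and bars are group means. The P10 SC groups are highest, and sarm1ko EU, LGN EU and immunopanned cells without capture are lowest.

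Reads of 1 ribosomal RNA gene and of the mitochondrial genome took up part of the TPM total and differed between libraries. In the sarm1ko EU libraries the ribosomal RNA gene took 39.4, 21.9 and 37.5% and mitochondrial genes 34.4, 23.9 and 45.2% of TPM. Without both, the members' share was 6.16% ± 1.83 in sarm1ko EU libraries, against 7.25% ± 3.0 in wild-type P14 SC EU libraries, which overlap. It was 11.1% ± 3.87 in EU-captured immunopanned cells on the same basis. The pooled share therefore describes the whole library, and the comparisons below use counts scaled by TMM (trimmed mean of M values) over all genes tested.

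Levels within the family were far from even. Over all libraries, the highest median TPM of the large subunit was that of Rplp1, an acidic stalk protein that helps recruit elongation factors, at 3418 TPM, followed by Rpl8 at 2336 TPM, which lies near the peptidyl transferase centre. In the small subunit Rps2 led with 2115 TPM, ahead of Rps18 with 1883 TPM. Rplp2, the partner of Rplp1 in the stalk, had a median of 1057 TPM and Rplp0, the base of the stalk, 927 TPM. Rpl5, which with Rpl11 carries the 5S RNA and can bind Mdm2, was at only 21.9 TPM.

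Several paralogs were near 0. Of the members named here, Rpl6l, Rps3a2, Rps3a3 and Rps12l1 are annotated as processed pseudogenes and Rps4l as a transcribed processed pseudogene. Rpl10l, the testis copy of Rpl10, was listed at 0 in 46 of 48 libraries, Rpl39l and Rpl6l in 35 each, Rps3a3 in 34, Rps3a2 in 31 and Rps12l1 in 47, the exception being a sarm1ko library. Rpl3l, the striated-muscle form of Rpl3, had a median of 0.57 TPM, against 793 TPM for Rpl3. Rpl7l1 had 18.6 TPM against 559 TPM for Rpl7, Rps27l 57.0 TPM against 105 TPM for Rps27, and Rps4l 132 TPM against 727 TPM for Rps4x, values that are uncertain because near-identical sequences can share reads. The same holds for the 61 members that have annotated pseudogenes, 281 in all. Rpl22l1, which can take the place of Rpl22 in the ribosome, was at 155, 599 and 634 TPM in EU-captured immunopanned cells. It was at 5.88, 10.5, 16.3, 10.9 and 24.7 TPM in wild-type P14 SC EU libraries. These 2 groups did not overlap, but they differ in cell types as well as in place. In counts scaled by library total, Rpl22l1 overlapped between P14 SC TRAP replicates 3 to 5 and wild-type sorted eye cells.

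**Figure D2:**
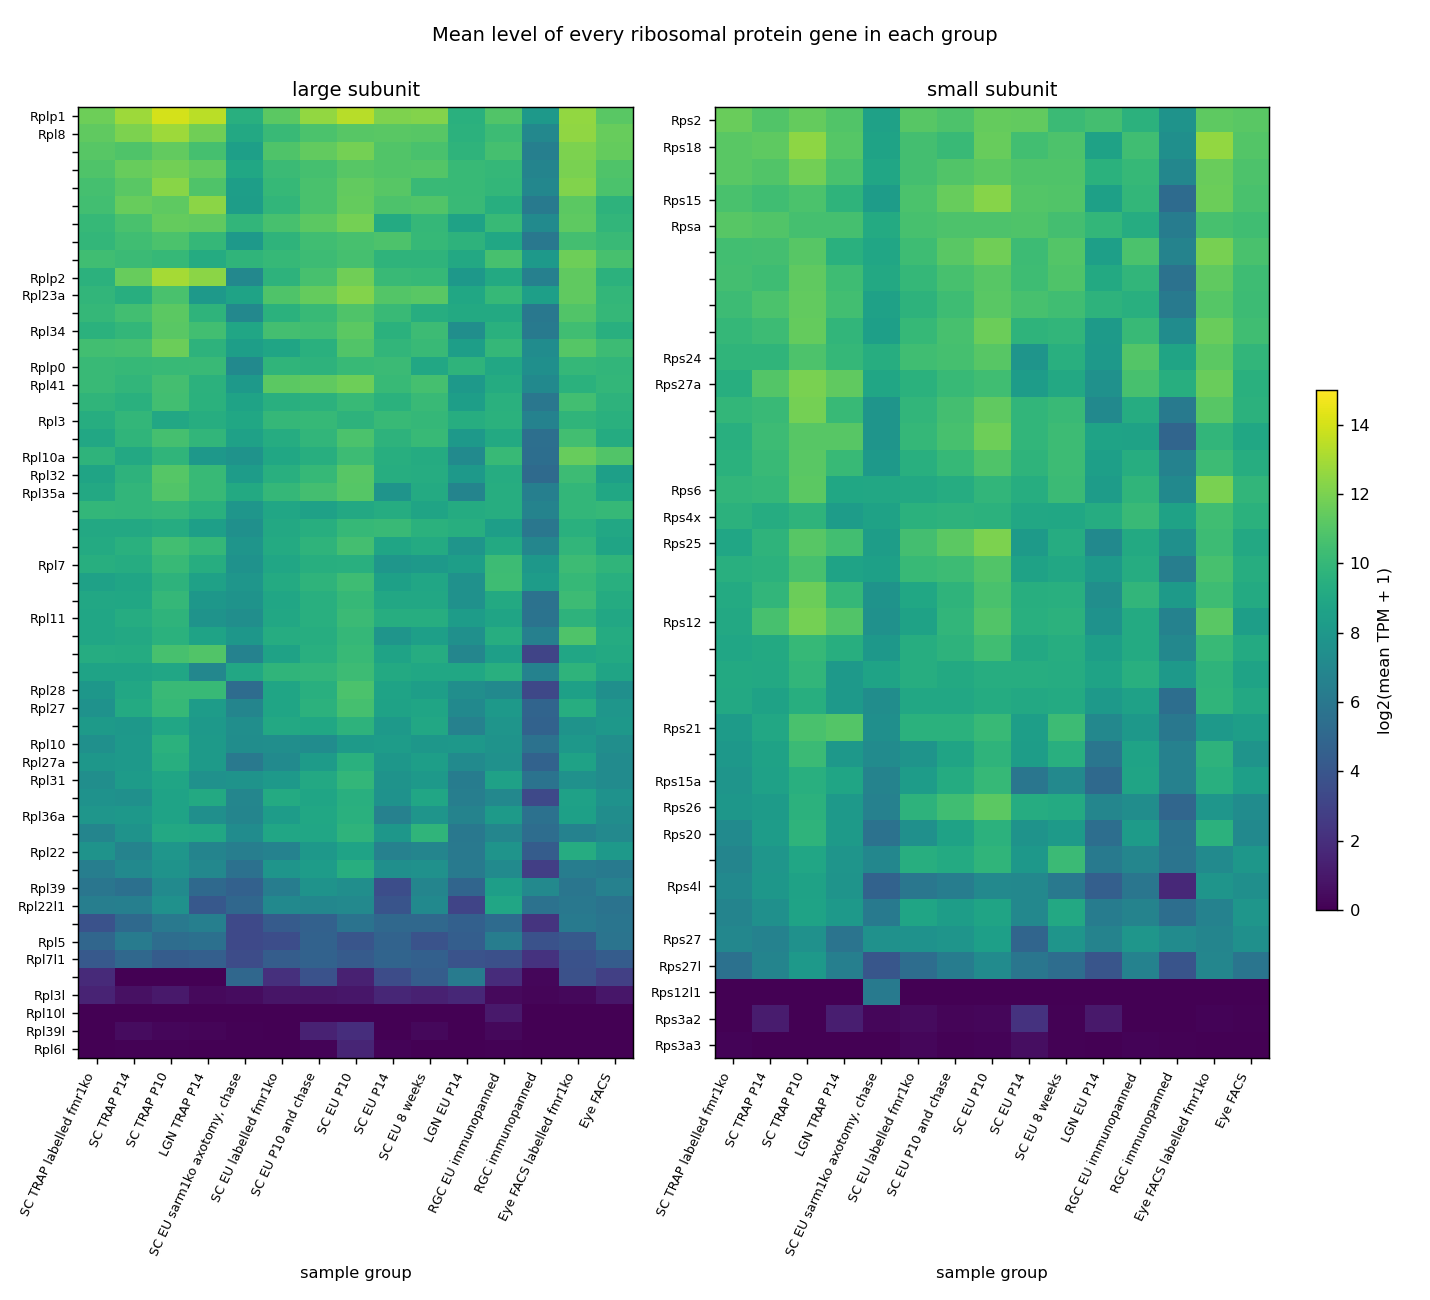
Mean level of every member, as log2(TPM + 1), in each of the 15 groups, with large-subunit genes and small-subunit genes in separate panels, in order of median TPM over all libraries; rows of members named in the text carry their symbol. Most core members are high in the P10 SC groups, and Rpl10l, Rpl39l, Rpl6l, Rps3a2 and Rps3a3 stay near 0, as does Rps12l1 outside the sarm1ko group.

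Between P10 and P14, part of the EU-labelled ribosomal protein mRNAs of the SC fell. Of 82 members tested, 24 fell and 0 rose in P14 libraries relative to P10 libraries (edgeR's quasi-likelihood test, Benjamini-Hochberg adjusted p below 0.05), 13 of 49 in the large and 11 of 33 in the small subunit, against 1.12% of all genes tested that fell. The median log2 fold change was -1.07 for the large and -1.32 for the small subunit, against 0.03 for all genes. In bulk RNA, fewer labelled axons and less RNA per axon cannot be told apart.

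Rps15a, a core protein of the small subunit, was at 40.4, 36.5 and 46.3 CPM (counts scaled by library total and by TMM within the comparison, not by length) in P14 libraries, against 522, 253 and 468 CPM in P10 libraries. All P14 libraries were below all P10 libraries, and the log2 fold change was -3.33 ± 0.35 (SE, adjusted p = 0.00252). Rps24, a small-subunit protein mutated in some cases of Diamond-Blackfan anaemia, had 20.6, 16.4 and 53.6 CPM at P14, against 715, 395 and 584 CPM at P10 (-4.23 ± 0.49, adjusted p = 0.0035). Rpl31, near the exit of the peptide tunnel, had 58.1, 65.7 and 78.6 CPM at P14, against 298, 340 and 262 CPM at P10 (-2.15 ± 0.29, adjusted p = 0.0066). Both genes were separated without overlap. Rpl36a, of the region where the deacylated tRNA leaves, fell as well, with 25.1, 22.7 and 41.6 CPM at P14 against 246, 122 and 141 CPM at P10 (-2.51 ± 0.39, adjusted p = 0.0127).

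Other members did not follow. The log2 fold change of Rpl8 was 0.05 ± 0.30, that of Rplp0 -0.24 ± 0.34 and that of Rpsa, also known as a laminin receptor, 0.20 ± 0.31. For Rpsa, P14 libraries had 1710, 2320 and 1390 CPM, against 1690, 1610 and 1410 CPM at P10, which overlap. Rplp1 had 1090, 1380 and 792 CPM at P14, against 2790, 2730 and 2020 CPM at P10, without overlap, yet missed the threshold (-1.21 ± 0.32, adjusted p = 0.0761).

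The count of 24 rested on single libraries. It was 2 without P14 replicate 3, 38 without P14 replicate 5, 3 without P10 replicate 1, 10 without P10 replicate 2 and 10 without P10 replicate 3, and 3 with all 5 P14 libraries. In those 5 libraries Rpl7, a large-subunit protein, was at 427, 581, 26.3, 35.7 and 119 TPM, so replicates 1 and 2 were above replicates 3 to 5. The median change stayed between -1.31 and -0.92 in the large and between -1.45 and -1.02 in the small subunit when any 1 library was left out. Myelin and oligodendrocyte markers moved with this comparison: 6 of 14 were higher at P14 (median log2 fold change 2.14), their sum was 6740 to 10879 TPM at P14 against 1161 to 2098 TPM at P10, no marker was at 0 throughout, and their part in the result was not tested. Here and below, marker ranges of wild-type P14 SC groups cover all 5 libraries.

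**Figure D3:**
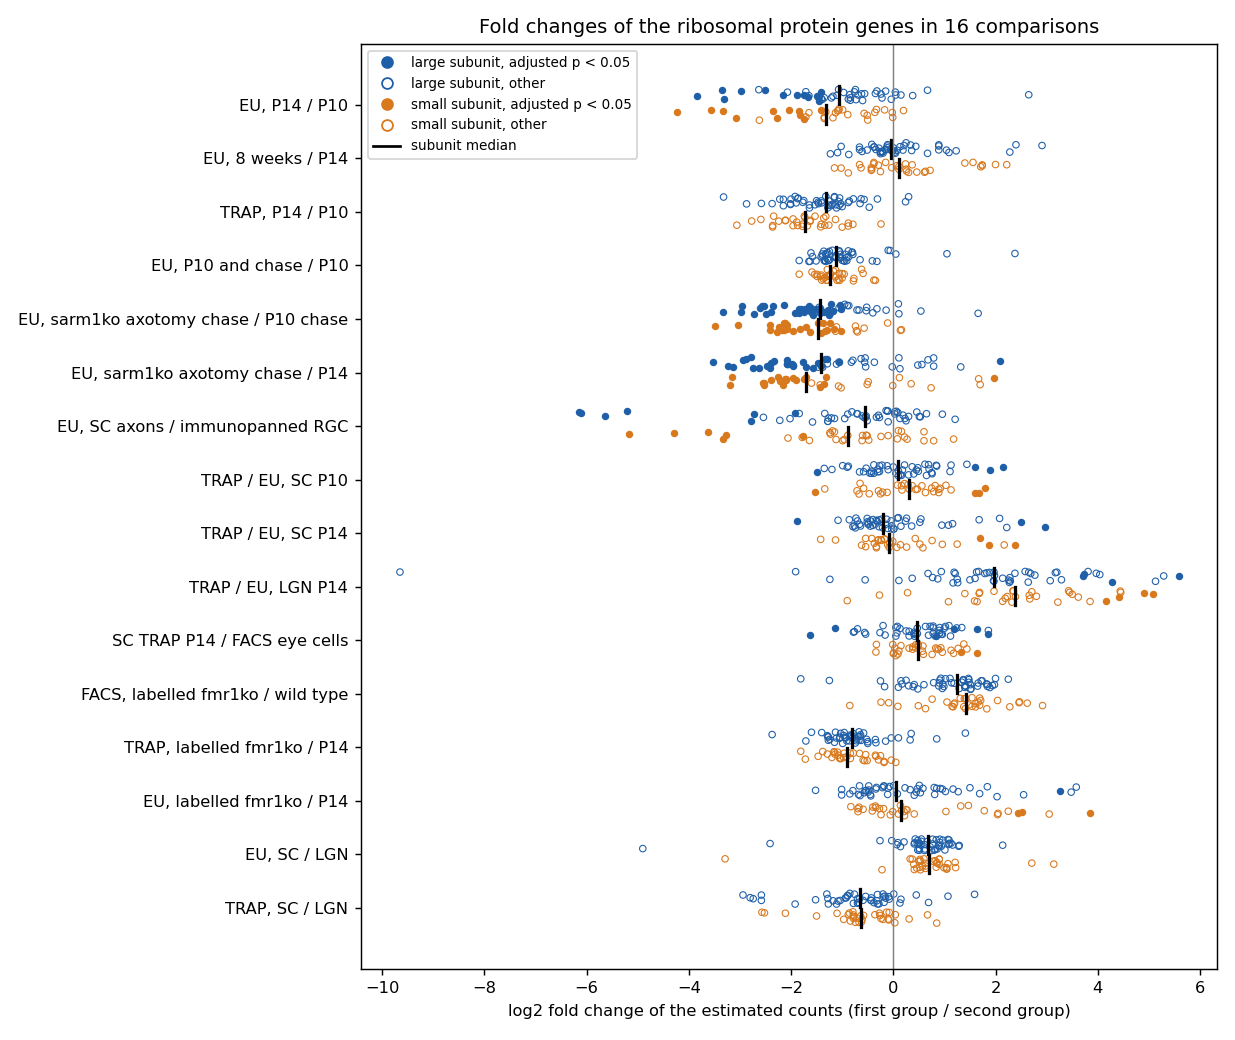
Log2 fold change of every tested member in the 16 comparisons, large and small subunit apart; filled points have an adjusted p below 0.05 (edgeR) and bars mark the subunit medians. The medians lie well below 0 for P14 against P10, chase against P10 and sarm1ko, and above 0 for LGN TRAP against LGN EU and for sorted cells labelled fmr1ko.

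After a 4-day chase from P10, nearly all members stood below P10 without chase, but none passed the main test. The medians were -1.12 and -1.23 on the log2 scale for the large and small subunit, and 79 of 82 members were negative. The edgeR test called 0 members (0.00597% of all genes were called in either direction), while 70 members were lower at an unadjusted p below 0.05, against 8.91% of all genes. DESeq2 called 60 members lower, against 3.15% of all genes, and limma on log2(TPM + 1) called 0. Rplp1 had 695, 1500 and 1260 CPM with chase, against 3340, 3220 and 2300 CPM without it. Rps6, the substrate of S6 kinase, had 207, 362 and 331 CPM with chase, against 613, 665 and 523 CPM without it. Neither gene's groups overlapped. Myelin markers again differed, at 4428 to 7160 TPM with chase against 1161 to 2098 TPM without it (none at 0; 0 of 14 called, median log2 fold change 1.67), and their part was not tested. Both this comparison and that of P14 with P10 used the same P10 libraries.

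At 8 weeks the libraries did not move together. The medians were -0.04 for the large and 0.11 for the small subunit relative to P14 (-0.57 and -0.45 on log2(TPM + 1)), edgeR called 0 members (0.0% of all genes), 6 members were higher at an unadjusted p below 0.05 (7.22% of all genes), DESeq2 called 1 and limma 0. Replicate 3 at 8 weeks stood apart: Rplp0 had 235, 103 and 1040 CPM at 8 weeks, against 769, 1130 and 610 CPM at P14. Without that library 18 members were called, 5 higher and 13 lower, and the medians were -0.94 and -1.04. The share of all genes called in that fit is not given, so this count is not read as particular to the members. Mitochondrial genes took 35.0, 50.0 and 1.59% of TPM in the 8-week libraries, and their part was not tested.

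In ribosome-bound RNA of the SC, too, nearly all members stood lower at P14 than at P10, and none passed the main test. In SC TRAP libraries at P14 relative to P10 the medians were -1.32 for the large and -1.73 for the small subunit, and 80 of 82 members were negative. The edgeR test called 0 members and 0.0% of all genes, 53 members were lower at an unadjusted p below 0.05 (9.07% of all genes), DESeq2 called 31 lower (3.64% of all genes) and limma 0. Rps6 had 472, 314 and 418 CPM at P14, against 1080, 1800 and 2310 CPM at P10, and the log2 fold change was -2.11 ± 0.44. Rplp2 had 301, 185 and 168 CPM at P14, against 350, 3340 and 2860 CPM at P10 (-3.32 ± 0.75). Neither overlapped, but P10 replicate 1 lay far below the other P10 libraries for Rplp2. Without that library 17 members were called, a count for which the share of all genes is not given. Myelin markers were at 4673 to 22101 TPM at P14 and at 1324 to 3339 TPM at P10 (none at 0; 0 called, median log2 fold change 2.38), and their part was not tested.

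Whether ribosome-bound and labelled RNA changed unequally with age was tested by the interaction of method and age. Of the members, 0 passed the adjusted threshold (edgeR; 13 at an unadjusted p below 0.05), as did 0 of 18660 genes. The difference was -1.97 ± 0.54 for Rpl8 and -2.44 ± 0.55 for Rpl10 (both adjusted p = 0.362), which were chosen after their values were seen.

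In sarm1ko mice with axotomy and a 7-day chase, 47 of 82 members fell relative to wild-type P14 libraries and 2 rose (edgeR, adjusted p below 0.05), with 27 of 49 lower in the large and 20 of 33 in the small subunit. Of all genes, 20.8% fell and 16.8% rose. The medians were -1.42 and -1.71, against 0.16 for all genes. The groups differ in genotype, axotomy, chase and age at once, and these cannot be told apart.

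The stalk proteins led. Rplp1 had 71.8, 103 and 94.6 CPM in sarm1ko libraries, against 801, 1000 and 550 CPM in P14 libraries (log2 fold change -3.13 ± 0.34). Rplp2 had 13.7, 21 and 14.5 CPM in sarm1ko libraries, against 158, 289 and 123 CPM at P14 (-3.53 ± 0.41). Both were far apart without overlap, and Rplp0 fell with them (-2.42 ± 0.35, adjusted p = 0.00209). Rps20, of the head of the small subunit, had 21.4, 30.1 and 22.9 CPM in sarm1ko libraries, against 139, 149 and 102 CPM at P14 (-2.39 ± 0.31). Rps2, near the mRNA entry, had 186, 224 and 209 CPM in sarm1ko libraries, against 1110, 1490 and 959 CPM at P14 (-2.53 ± 0.31). The adjusted p of Rplp1, Rplp2, Rps20 and Rps2 was 0.00172. Rpl11 (-2.05 ± 0.31, adjusted p = 0.00229) and Rpsa (-1.32 ± 0.32, adjusted p = 0.0108) also fell.

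Rps24 and Rpl7 went the other way, though neither was called higher by limma on log2(TPM + 1) or with the GC trend removed, settings in which 0 members were higher. Rps24 rose to 54.8, 150 and 46.9 CPM in sarm1ko libraries, against 15.2, 11.9 and 37.3 CPM at P14 (1.97 ± 0.56, adjusted p = 0.0201). Rpl7 rose to 105, 198 and 73.4 CPM in sarm1ko libraries, against 12, 17.5 and 59.7 CPM at P14 (2.08 ± 0.60, adjusted p = 0.0217). Neither overlapped, but P14 replicates 1 and 2, not used here, held 427 and 581 TPM of Rpl7, against 26.3, 35.7 and 119 TPM in those used. Rps6 (-0.51 ± 0.33, adjusted p = 0.23) and Rpl5 (0.79 ± 0.70, adjusted p = 0.386) passed in no direction. With all 5 P14 libraries as the comparison, 6 members were lower. Retinal ganglion cell markers fell in 4 of 12 tested, with a sum of 416 to 1581 TPM in sarm1ko libraries against 3702 to 5859 TPM at P14 (none at 0), and their part in the result was not tested.

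Set against the wild-type chase libraries, 57 of 82 members fell in sarm1ko libraries and 0 rose (edgeR). Of these 57, 33 were of the large and 24 of the small subunit. Of all genes, 11.3% fell, and 1774 of the 17991 tested rose. The medians were -1.44 and -1.47, against 0.0 for all genes. These groups, too, differ in genotype, axotomy, length of the chase and age at its start, and these cannot be told apart. Rps26, at the mRNA exit channel, had 19.1, 31.1 and 25 CPM in sarm1ko libraries, against 179, 435 and 230 CPM in chase libraries (-3.48 ± 0.38, adjusted p = 0.000218). Rps15 had 43.9, 54.9 and 47.6 CPM in sarm1ko libraries, against 277, 573 and 358 CPM in chase libraries (-3.04 ± 0.34, adjusted p = 0.000229). Rpl41, the smallest ribosomal protein, had 42.5, 62.4 and 46.4 CPM in sarm1ko libraries, against 261, 372 and 371 CPM in chase libraries (-2.73 ± 0.31, adjusted p = 0.000229). All 3 genes were separated by a wide gap. Rplp2 (-3.33 ± 0.40, adjusted p = 0.0003) and Rplp1 (-2.95 ± 0.37, adjusted p = 0.000371) fell here too. Rps24 fell (-1.23 ± 0.41, adjusted p = 0.0444), against the rise seen relative to P14, and Rps6 did not pass (0.16 ± 0.33, adjusted p = 0.769). The count was 27 without sarm1ko replicate 1, 28 without sarm1ko replicate 3 and 31 without chase replicate 2. Retinal ganglion cell markers fell in 4 of 13 tested, at 416 to 1581 TPM in sarm1ko libraries against 3743 to 5263 TPM with chase, Isl1 being at 0 in every chase library, and their part was not tested.

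**Figure D4:**
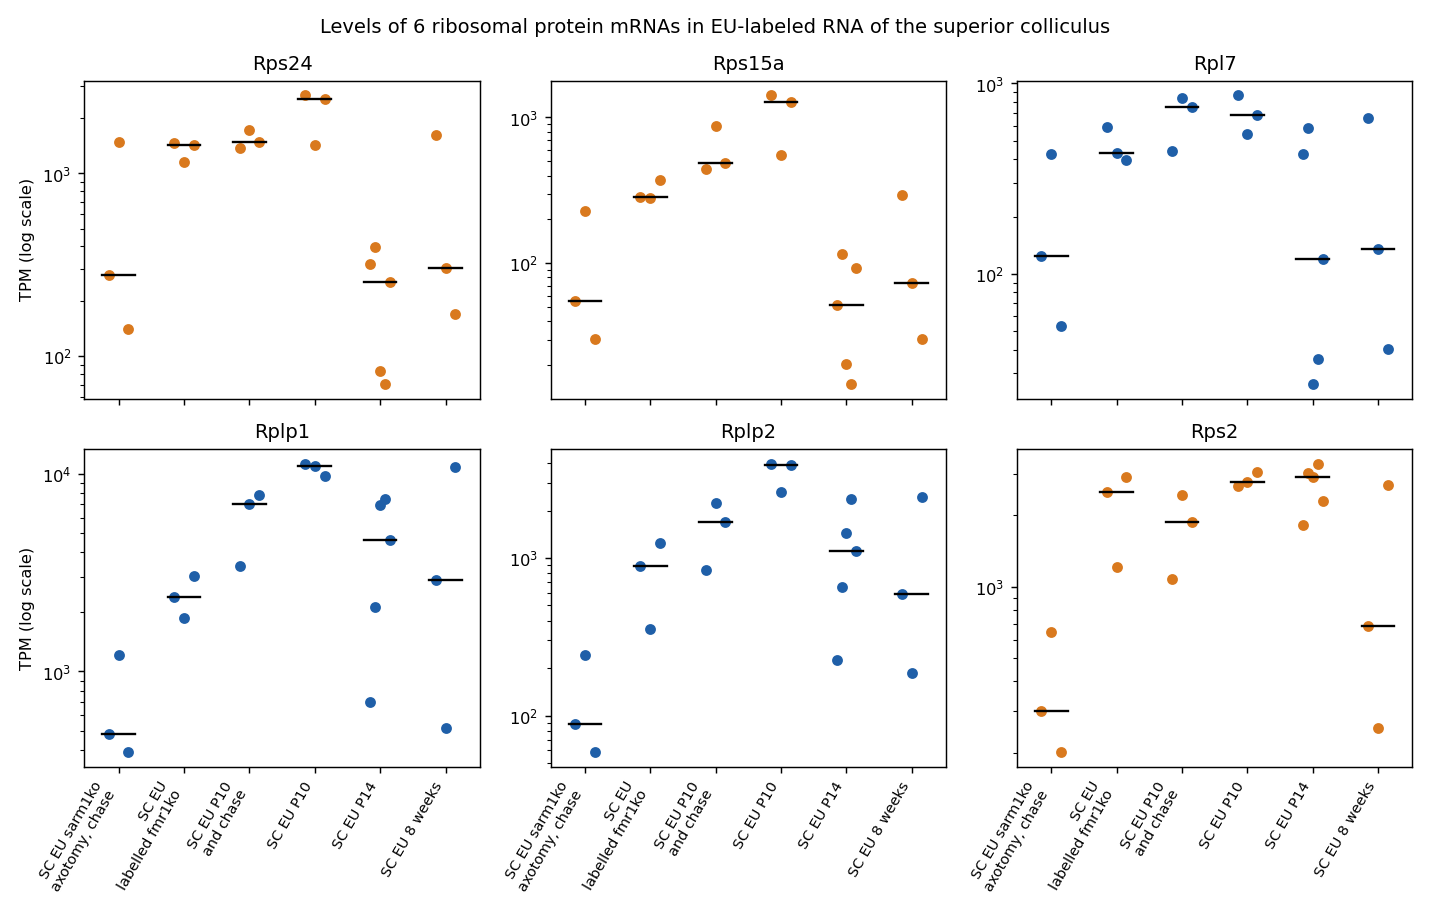
TPM (log axis) of Rps24, Rps15a, Rpl7, Rplp1, Rplp2 and Rps2 in each library of the 6 SC EU groups; bars are group medians. In wild-type P14 libraries, Rpl7 is at 26.3 to 581 TPM, and in sarm1ko libraries Rplp1 is at 389 to 1206 TPM, below every P10 library.

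Labelled RNA at the SC held a part of the family at much lower levels than labelled RNA of the immunopanned cells. Of 83 members tested, 13 were lower in P14 SC EU libraries than in EU-captured immunopanned cells and 0 higher (edgeR). Of all genes, 11.4% were lower, a share not far from that of the members. However, 1707 of the 15540 genes tested were higher, against 0 of the members. The medians were -0.55 and -0.89, but on log2(TPM + 1) with limma they were 0.72 and 0.57, with 7 members higher and 9 lower, so the direction for the family as a whole depends on the scale. Rpl7 had 11.7, 16.8 and 62.1 CPM in SC libraries, against 997, 1500 and 2030 CPM in immunopanned cells (-5.64 ± 0.83, adjusted p = 0.00382). Rps24 had 14.8, 11.4 and 38.8 CPM in SC libraries, against 269, 671 and 1390 CPM in immunopanned cells (-5.16 ± 0.84, adjusted p = 0.00523). Rpl22l1 had 2.02, 1.63 and 6.71 CPM in SC libraries, against 42.0, 393 and 275 CPM in immunopanned cells (-6.10 ± 1.04, adjusted p = 0.00605). None of these groups overlapped, and Rpl5 had 0.98, 6.99 and 7.90 CPM in SC libraries, against 75.1, 177 and 337 CPM in immunopanned cells (-5.21 ± 0.96, adjusted p = 0.00787).

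Of the stalk genes, none passed. The log2 fold change of Rplp1 was 0.53 ± 0.53 and that of Rplp0 0.03 ± 0.52, with overlapping libraries. The count of 13 was 5 without SC replicate 3, 5 without SC replicate 4, 23 without immunopanned replicate 1, 8 without immunopanned replicate 3, and 21 with all 5 SC libraries. The cells differed in other types of RNA as well: all 14 rod markers were lower at the SC (1.0 to 34.8 TPM, with Rp1, Pdc and Gngt1 at 0, against 3518 to 82250 TPM) and all 13 myelin markers tested were higher (6740 to 10879 TPM against 10.2 to 30.4 TPM, with 8 markers at 0 in the immunopanned cells). Their part was not tested.

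In the SC at P14, ribosome-bound and labelled RNA differed for few members. Relative to EU libraries, 5 of 82 members were higher in TRAP libraries and 1 lower (edgeR). Of all genes, 5.73% were higher, a share near that of the members, and 8.64% lower, a share above that of the members. Rpl7 had 636, 110 and 252 CPM in TRAP libraries, against 17, 24.7 and 86.6 CPM in EU libraries (2.96 ± 0.74, adjusted p = 0.0244). Rps15a had 227, 81.1 and 103 CPM in TRAP libraries, against 42.2, 37.5 and 46.6 CPM in EU libraries (1.70 ± 0.43, adjusted p = 0.0253). Both were higher in every TRAP library, as were Rpl5 (2.50 ± 0.69, adjusted p = 0.0361) and Rps24 (2.38 ± 0.67, adjusted p = 0.0378). Rps27a, made as a fusion with ubiquitin, also rose (1.87 ± 0.54, adjusted p = 0.0422). Rpl23a, at the tunnel exit, was lower, with 228, 156 and 143 CPM in TRAP libraries, against 571, 907 and 456 CPM in EU libraries (-1.88 ± 0.39, adjusted p = 0.0132). The count of 6 was 1 without TRAP replicate 3, 0 without TRAP replicate 5, 1 without EU replicate 3, 2 without EU replicate 4 and 13 without EU replicate 5. Microglial markers were higher in TRAP libraries for 3 genes, and their part was not tested.

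At P10, 6 of 82 members were higher in TRAP than in EU libraries and 2 lower (edgeR), against 6.38% of all genes higher and 11.1% lower. Rpl8 had 3070, 3450 and 6790 CPM in TRAP libraries, against 1380, 1190 and 1030 CPM in EU libraries (1.89 ± 0.45, adjusted p = 0.017). Rps6 had 1010, 1660 and 2150 CPM in TRAP libraries, against 550, 579 and 468 CPM in EU libraries (1.59 ± 0.40, adjusted p = 0.0221). Rpl5 had 74.7, 50.8 and 58.0 CPM in TRAP libraries, against 9.72, 11.3 and 20.1 CPM in EU libraries (2.15 ± 0.42, adjusted p = 0.00835). None of these overlapped. Rps4l (1.68 ± 0.35, adjusted p = 0.0104), annotated as a pseudogene, whose reads may be shared with Rps4x, was higher as well. Rps15 was lower with 281, 569 and 390 CPM in TRAP libraries, against 1510, 1110 and 987 CPM in EU libraries (-1.54 ± 0.40, adjusted p = 0.0256), and so was Rpl23a (-1.49 ± 0.45, adjusted p = 0.0462). The count of 8 was 16 without TRAP replicate 1 and 2 without any 1 of the EU replicates. Microglial markers were higher for 4 genes and myelin markers for 2, and their part was not tested.

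In the LGN, most of the family stood higher in ribosome-bound RNA. Of 83 members, 8 rose in TRAP relative to EU libraries and 0 fell (edgeR), against 0.235% of all genes that rose. The medians were 1.98 and 2.39, against -0.24 for all genes, and 77 members were positive. Rps25 had 442, 170 and 683 CPM in TRAP libraries, against 14.2 and 26.2 CPM in EU libraries (4.41 ± 0.85, adjusted p = 0.0436). Rps21 had 711, 89.0 and 417 CPM in TRAP libraries, against 11.1 and 12.8 CPM in EU libraries (5.08 ± 1.0, adjusted p = 0.0436). Rpl34 had 514, 222 and 498 CPM in TRAP libraries, against 32.1 and 30.9 CPM in EU libraries (3.71 ± 0.72, adjusted p = 0.0436). These 3 genes were separated widely, as were Rpl35a (4.28 ± 0.86, adjusted p = 0.0461) and Rplp2 (5.58 ± 1.14, adjusted p = 0.0467). The count of 8 was 0 without TRAP replicate 1, TRAP replicate 3 or either EU library. With another scaling (RLE) it was 15, and it was 38 without a filter on low counts. Myelin markers were at 17261 to 24711 TPM in TRAP libraries against 11718 to 16749 TPM in EU libraries (none at 0; 0 of 14 called, median log2 fold change 1.69). Microglial markers were at 848 to 1207 TPM in TRAP libraries against 169 to 483 TPM in EU libraries (1 of 14 higher), and lens markers at 198 to 326 TPM against 35.1 to 166 TPM (0 of 6 tested called). Neither list's groups overlapped, and the part of these markers was not tested.

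Ribosome-bound RNA of the P14 SC differed from sorted eye cells in 6 members that were higher and 2 that were lower, of 82 tested (edgeR), below the 22.2% of all genes that were higher and the 22.4% that were lower. Rpl27 had 264, 194 and 95.6 CPM in TRAP libraries, against 44.2, 38.7 and 70.6 CPM in sorted cells (1.85 ± 0.44, adjusted p = 0.0122). Rps26 had 147, 109 and 58.5 CPM in TRAP libraries, against 31.9, 24.7 and 44.7 CPM in sorted cells (1.63 ± 0.41, adjusted p = 0.0163). Rpl10a was lower, with 298, 279 and 120 CPM in TRAP libraries, against 750, 531 and 867 CPM in sorted cells (-1.62 ± 0.41, adjusted p = 0.0166). The groups of these genes did not overlap. Rpl28 (1.19 ± 0.38, adjusted p = 0.0394) and Rpl31 (1.64 ± 0.53, adjusted p = 0.0396) were higher, and Rpl22 was lower (-1.14 ± 0.29, adjusted p = 0.0156). The count of 8 was 4 without TRAP replicate 3, 18 without TRAP replicate 5 and 2 without sorted replicate 2. Here all 14 rod markers were lower and all 14 myelin markers higher in TRAP libraries (rods at 5.8 to 38.4 TPM, with Cnga1 and Gngt1 at 0, against 72214 to 120538 TPM, and myelin at 4673 to 22101 TPM against 11.9 to 29.6 TPM, with 6 markers at 0 in sorted cells). Their part was not tested.

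Libraries labelled fmr1ko differed by method. In SC EU libraries labelled fmr1ko, 4 of 83 members rose relative to wild-type P14 libraries and 0 fell (edgeR), against 0.816% of all genes that rose, with medians of 0.05 and 0.16, which were -0.29 and -0.31 on log2(TPM + 1). Rps15a rose to 148, 251 and 196 CPM in libraries labelled fmr1ko, against 36.1, 32.7 and 41.0 CPM in wild-type libraries (2.44 ± 0.31, adjusted p = 0.0256). Rps24 rose to 300, 532 and 320 CPM in libraries labelled fmr1ko, against 18.4, 14.7 and 47.6 CPM in wild-type libraries (3.84 ± 0.51, adjusted p = 0.029). These groups lay far apart. Rpl39, a small protein of the peptide tunnel, had 28.7, 51.7 and 13.5 CPM in libraries labelled fmr1ko, against 3.57, 2.05 and 4.17 CPM in wild-type libraries (3.26 ± 0.59, adjusted p = 0.0416). Rps27 had 16.1, 35.3 and 30.4 CPM in libraries labelled fmr1ko, against 3.27, 5.46 and 5.63 CPM in wild-type libraries (2.51 ± 0.49, adjusted p = 0.0485). The count was 0 without replicate 1 labelled fmr1ko, 2 without replicate 2 labelled fmr1ko, 0 without P14 replicate 3, 0 without P14 replicate 4 and 21 without P14 replicate 5, and 2 with all 5 wild-type libraries. Mitochondrial genes took 18.6, 51.8 and 15.7% of TPM in the libraries labelled fmr1ko, and their part was not tested.

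In SC TRAP libraries labelled fmr1ko the medians were -0.81 and -0.91, and -0.02 and -0.08 with the length trend of each library removed. The edgeR test called 0 members (0.0% of all genes), 8 were lower at an unadjusted p below 0.05 (8.14% of all genes), DESeq2 called 1 and limma 0. Rps27a had 122, 179 and 159 CPM in libraries labelled fmr1ko, against 730, 201 and 343 CPM in wild-type libraries. Rplp2 had 93.7, 115 and 100 CPM in libraries labelled fmr1ko, against 346, 210 and 188 CPM in wild-type libraries. These groups did not overlap. Without replicate 2 labelled fmr1ko, which held rod markers at 84030 TPM, 1 member was called.

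In sorted eye cells labelled fmr1ko most members stood higher than in wild-type sorted cells. The medians were 1.24 and 1.42, and 76 of 83 members had a positive log2 fold change. The edgeR test called 0 members (0.0593% of all genes in either direction), 60 were higher at an unadjusted p below 0.05 (6.15% of all genes), DESeq2 called 52 higher (3.86% of all genes) and limma 5 higher (0.0923% of all genes). Rps6 had 1780, 2420 and 1800 CPM in cells labelled fmr1ko, against 340, 229 and 520 CPM in wild-type cells (2.46 ± 0.34, adjusted p = 0.0715). Rps27a had 907, 885 and 866 CPM in cells labelled fmr1ko, against 187, 98.5 and 196 CPM in wild-type cells (2.47 ± 0.30, adjusted p = 0.0583). Both gaps were wide. Rplp1 had 1230, 1140 and 834 CPM in cells labelled fmr1ko, against 309, 188 and 401 CPM in wild-type cells. Rod markers overlapped, at 68757 to 77189 TPM in cells labelled fmr1ko and 72214 to 120538 TPM in wild-type cells. Retinal ganglion cell markers did not, at 279 to 345 TPM in cells labelled fmr1ko against 142 to 228 TPM in wild-type cells (0 of 11 tested called, median log2 fold change 1.03). Nor did the midbrain list, at 234 to 321 TPM against 417 to 490 TPM (0 of 3 tested called), and the part of either list was not tested.

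The difference between these effects was tested by interaction. The effect in sorted cells minus that in TRAP libraries was positive for 11 members (edgeR, adjusted p below 0.05), against 0.871% of all genes, and 25 members without TRAP replicate 2 labelled fmr1ko, against 2.37% of all genes. The effect in sorted cells minus that in EU libraries was positive for 11 members, against 0.641% of all genes. For Rps20 the log2 fold change was 2.64 in sorted cells and -1.21 in TRAP libraries, a difference of 3.85 ± 0.63 (adjusted p = 0.0255), and 4.22 ± 0.57 without the doubted library (adjusted p = 0.00605). The difference from EU libraries was 3.42 ± 0.49 for Rps20 (adjusted p = 0.0125) and 3.62 ± 0.54 for Rps12 (adjusted p = 0.0135). Fmr1 itself did not bear out the labels of these groups as a whole. It was at 26.6, 2.6 and 3.0 TPM in sorted cells labelled fmr1ko and at 21.2, 13 and 5.5 TPM in wild-type sorted cells. Replicates 2 and 3 labelled fmr1ko thus lay below all wild-type sorted libraries, and replicate 1 above them. In TRAP libraries it was at 0.1, 6.0 and 3.6 TPM with the fmr1ko label and at 2.2, 1.3 and 5.4 TPM in wild-type libraries, of which replicate 1 labelled fmr1ko alone lay below all wild-type ones. No direction is drawn for its loss.

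Between targets, no member passed. In EU libraries of the SC relative to the LGN the medians were 0.67 and 0.71, edgeR called 0 members (0.0% of all genes), 0 members were higher at an unadjusted p below 0.05 (1.39% of all genes), and DESeq2 and limma called 0. When 1 library was left out the medians lay between -0.55 and 1.33. In TRAP libraries of the SC relative to the LGN the medians were -0.66 and -0.63, edgeR called 0 members (0.0% of all genes), 6 were lower at an unadjusted p below 0.05 (1.63% of all genes), and DESeq2 and limma called 0. Rplp0 had 1040 and 608 CPM in SC TRAP libraries and 1370, 974 and 741 CPM in LGN TRAP libraries, which overlap.

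In part of the comparisons, most of them with the P14 SC EU libraries, members were also described by the GC content of their transcripts. The choice of members did not use this feature. The 81 members with a median of at least 10 TPM were divided by GC content into 3 sets of 27. The lowest was at 39.0 to 49.1% and the highest at 54.0 to 60.8%, with 15 and 17 large-subunit genes. The median TPM of the low-GC set over that of the high-GC set was 0.622, 0.253, 0.191, 0.0782 and 0.316 in the 5 wild-type P14 SC EU libraries, against 0.415 to 0.477 in P10 EU libraries. It was 0.61, 0.79 and 0.556 in sarm1ko libraries, 0.564, 0.825 and 0.487 in SC EU libraries labelled fmr1ko, and 0.633, 1.0 and 1.1 in EU-captured immunopanned cells. P14 replicates 3 to 5 were thus below every library of these other groups. Low ratios were not particular to them: LGN TRAP libraries were at 0.178, 0.256 and 0.305 and wild-type P14 SC TRAP libraries at 0.228 to 0.423. The 8-week SC EU libraries were at 0.75, 0.731 and 0.0817.

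**Figure D5:**
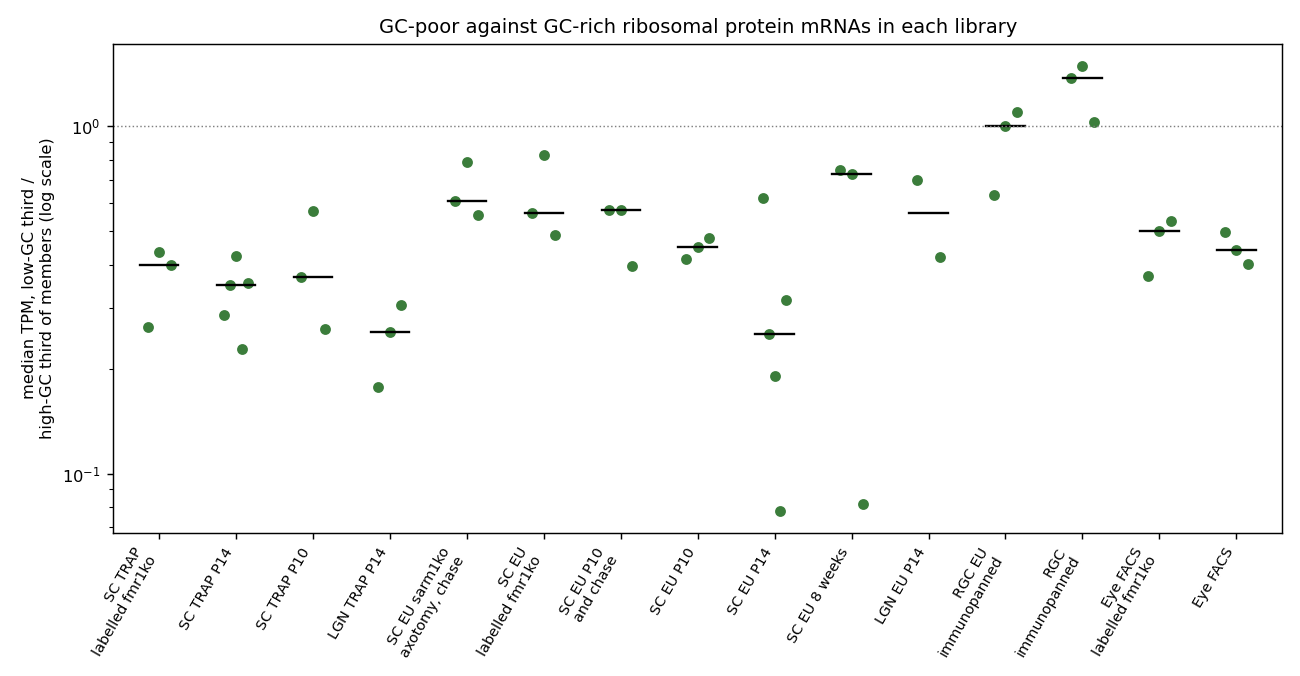
Ratio (log axis) of the median TPM of the 27 members of lowest transcript GC content to that of the 27 of highest GC content, per library and group. Wild-type P14 SC EU libraries run from 0.0782 to 0.622, and EU-captured immunopanned cells from 0.633 to 1.1.

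The sets are set beside all genes tested of the same range of GC content, and no test of their difference was made. In SC EU libraries relative to immunopanned cells, 12 members of the low-GC set and 0 of the high-GC set were lower, with medians of -1.92 and 0.06, against 20.8% and 2.69% of all genes of like GC content. In P14 relative to P10 EU libraries, 10 of the low-GC and 2 of the high-GC set fell (medians -1.41 and -0.76), against 1.33% and 0.86% of such genes. In sarm1ko relative to P14 libraries, 8 of the low-GC set fell and 2 rose, while 24 of the high-GC set fell (medians -0.02 and -2.12). Of all genes of like GC content, 2.55% fell and 30.4% rose in the low range, and 50.9% fell in the high range.

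In sarm1ko relative to chase libraries, 15 of the low-GC and 22 of the high-GC set fell (medians -1.16 and -1.75), against 3.86% and 24.6% of such genes. In EU libraries labelled fmr1ko, 3 of the low-GC set rose and 0 of the high-GC set (medians 1.03 and -0.27), against 1.43% and 0.178%. In some other comparisons the medians of the sets lay close together, with 0 members called in either set. They were at -1.41 and -1.42 for TRAP at P14 relative to P10 and at -0.78 and -0.85 for TRAP labelled fmr1ko. For SC relative to LGN TRAP they were -0.62 and -0.61, and for sorted cells labelled fmr1ko 1.42 and 1.17. In others they lay apart, at 0.36 and -0.29 for EU at 8 weeks relative to P14, with 0 called. For TRAP relative to EU at P14 they were 0.43 and -0.31. There 5 of the low-GC set rose and 1 fell, against 9.84% and 9.25% of genes of like GC content. In the high-GC set 0 were called, against 1.76% higher and 6.74% lower. The remaining comparisons are not listed. Across members, Spearman's correlation of log2 fold change with GC content was 0.63 relative to immunopanned cells and -0.57 for sarm1ko relative to P14, and across all genes 0.43 and -0.71. The trend also runs through all genes and is not shown to be particular to the members. Genes within a library share its base composition and are not independent. With the GC trend of each library removed, an alternative chosen after the data were seen, 37 members were called for P14 against P10 and 36 for SC EU against immunopanned cells, whose large-subunit median became -1.81. The shares of all genes called in these fits are not given, so the higher counts are not shown to be particular to the members.

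Members with and without the pyrimidine run at the annotated start had medians close to each other, and no test of their difference was made. In P14 relative to P10 EU libraries the median log2 fold change was -1.13 for members with a run and -1.20 for the others. In sarm1ko relative to P14 libraries it was -1.53 and -1.46, in TRAP at P14 relative to P10 -1.63 and -1.40, in TRAP relative to EU at P14 -0.20 and -0.13, and in sorted cells labelled fmr1ko 1.16 and 1.40. The other members lack the run only at the annotated start used, as in Rplp1 above.

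The lists of related genes were set beside the family. Of 4 ribosomal protein genes whose symbols the rule leaves out, Fau and Rpl36al among them, 3 fell in sarm1ko relative to P14 libraries, with Fau at -3.09 ± 0.36 (adjusted p = 0.00172), against 20.8% of all genes that fell. In P14 relative to P10 EU libraries 1 fell, Rpl36al (-1.66 ± 0.37, adjusted p = 0.0488). Of 20 other mRNAs with a reported TOP start, which encode translation factors and others, 12 fell and 1 rose in sarm1ko relative to P14 libraries (median -0.94), and 0 passed in either direction in P14 relative to P10 EU libraries (median -0.08). In SC EU relative to immunopanned cells 6 of the 20 were lower, against 11.4% of all genes, led by Eif3e (-7.88 ± 1.10) and Nap1l1 (-3.42 ± 0.48), both with an adjusted p of 0.00329, and in TRAP relative to EU libraries at P10 6 were higher and 1 lower, against 6.38% and 11.1% of all genes, led by Npm1 (2.74 ± 0.41, adjusted p = 0.00349).

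Of 6 snoRNA host genes, Gas5 fell in P14 relative to P10 EU libraries (-3.83 ± 0.53, adjusted p = 0.007), was lower at the SC than in immunopanned cells (-5.47 ± 0.85, adjusted p = 0.0045) and rose in sarm1ko relative to P14 libraries (2.76 ± 0.58, adjusted p = 0.00637). Of 44 ribosome biogenesis genes, which act mainly in the nucleolus, 1 fell in P14 relative to P10 EU libraries, Nop10 (-2.52 ± 0.55, adjusted p = 0.0433), and the list's median was -0.05. In sarm1ko relative to P14 libraries 11 of them fell and 5 rose (median 0.16), shares near the 20.8% and 16.8% of all genes, with Bop1 at -2.57 ± 0.39 (adjusted p = 0.00229) and Gtpbp4 at 3.42 ± 0.62 (adjusted p = 0.00378). At the SC relative to immunopanned cells 9 were lower (median -0.49), against 11.4% of all genes.

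The genes most like the median member over the 15 group means were looked for among 623 genes with a mean of at least 10 TPM in every group. Spearman's correlation was 0.925 for Cox6c, 0.921 for Atp5l, 0.90 for Cox7a2, 0.90 for Rps12-ps3 and 0.893 for Fau. Cox6c and Cox7a2 encode subunits of cytochrome c oxidase and Atp5l one of ATP synthase, and Rps12-ps3 is a pseudogene that can share reads with Rps12. The groups share libraries' depth and composition, so these values describe the 15 groups only.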

How the data were processed

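Salmon and mm10 are named in the submitters' processing notes, without a version of Salmon. The deposited tables hold estimated counts and TPM per gene, made by the authors. Estimated counts were rounded and tested in edgeR 4.0.16 (R 4.3.3; quasi-likelihood test, filterByExpr, TMM, Benjamini-Hochberg over all genes tested, adjusted p below 0.05) in 16 comparisons of the labelled groups. Alternatives were DESeq2 1.42.0, limma 3.58.1 on deposited TPM as log2(TPM + 1), RLE scaling, no filter, length and GC trends removed, a replicate block, pseudogene counts added, ribosomal RNA and mitochondrial genes left out, all 5 P14 libraries, and each library left out. Of 54331 gene IDs, 54097 matched a symbol. Salmon splits reads between near-identical copies by estimation, and EU and TRAP libraries are scaled to a total, so all changes are relative. Library totals limit precision, and low genes such as the paralogs rest on few counts.

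The members and gene lists were chosen with earlier results of these data known. Named are, in each comparison, the 4 called members of smallest adjusted p in each direction; in each subunit the 3 of highest and 3 of lowest median TPM; members with a paralog; Rplp0, Rplp1, Rplp2, Rpsa, Rps6, Rps27a, Rpl5 and Rpl11; for likeness 5 genes; and for each list 2 genes. A few genes this rule names are not reported here. Rpl8 and Rpl10 in the test of method and age, and members named only for a start sequence or to describe other calls, were chosen after their values were seen. The scripts were tested on simulated data. No 2 libraries were near-identical. Same-numbered replicates met no rule for pairing.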

Additional observations from a re-analysis of the deposited data

Results flagged for a closer look

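Of 69 values tested in the groups of 5 libraries, 12 had 1 library far from the other 4. The rule was set to flag about 1 in 20 by chance alone. That rate need not hold for members near 0, such as Rpl6l and Rps3a3, or for values that share the same libraries. No excess over chance is therefore read from the 12. In wild-type P14 SC EU libraries these were Rps27 in replicate 5 (73.7 TPM, the others 11.3 to 27.8), Rpl6l in replicate 2 (0.509 TPM, the others 0 to 0.113) and Rps3a3 in replicate 5 (1.88 TPM, the others 0 to 0.459). In wild-type P14 SC TRAP libraries, replicate 3 was high in the small-subunit share of TPM (4.93%, the others 2.68 to 2.98), in Rpl39 (143 TPM, the others 2.8 to 38.4), in Rps27 (347 TPM, the others 4.33 to 53.9) and in Rpsa (3328 TPM, the others 1289 to 1845). Replicate 2 was high in Rplp2 (8145 TPM, the others 1227 to 2092), Rpl5 (209 TPM, the others 19.8 to 53.8) and Rpl8 (9015 TPM, the others 2816 to 3508) and low in Rpl7l1 (18 TPM, the others 34.3 to 37.6). Replicate 1 alone had Rpl6l (0.318 TPM, the others listed at 0).

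The effect of the fmr1ko label differed between sorted eye cells and SC libraries for some members, by an interaction term (edgeR's quasi-likelihood test, Benjamini-Hochberg). Sorted cells minus TRAP was positive for 11 members, with 3.85 for Rps20, 4.34 for Rpl27, 3.68 for Rps23 and 4.04 for Rps12 on the log2 scale. Without TRAP replicate 2 labelled fmr1ko it was positive for 25 members, with 4.22 for Rps20, 4.55 for Rpl27, 2.95 for Rpl29 and 3.17 for Rps6. Sorted cells minus EU was positive for 11 members, with 3.42 for Rps20, 3.62 for Rps12, 3.21 for Rps23 and 2.78 for Rpl29.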

How the results depend on the processing

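No called result changed sign under the settings run. Subunit medians (large, small) did in some comparisons: SC EU against immunopanned cells was 0.72 and 0.57 by limma, SC against LGN EU as low as -0.55 and -0.54 with 1 library left out, TRAP against EU at P14 0.23 and 0.41 with all 5 wild-type P14 libraries, and TRAP against EU at P10 -0.14 and -0.01 by limma. Other medians near 0, among them EU at 8 weeks and EU labelled fmr1ko, changed sign too. The number of members called in each comparison follows. TRAP against EU at P14 called 6, with 13 without a filter, 11 by DESeq2 and 0 to 13 leaving out 1 library. TRAP against EU at P10 called 8, with 2 under the replicate block and 2 to 16 leaving out 1 library. TRAP against EU in the LGN called 8, with 15 by RLE, 38 without a filter, 34 by DESeq2, 22 by limma, 21 with the length trend and 27 with the GC trend removed, and 0 to 12 leaving out 1 library. SC EU against immunopanned cells called 13, with 20 by DESeq2, 36 with the GC trend removed, 21 with all 5 P14 libraries and 5 to 23 leaving out 1 library. TRAP against sorted cells called 8, with 15 by RLE, 21 by DESeq2, 17 by limma, 4 with the length trend removed, 1 under the replicate block and 2 to 18 leaving out 1 library. P14 against P10 EU called 24, with 40 without a filter, 46 by DESeq2, 13 with the length trend and 37 with the GC trend removed, 3 with all 5 P14 libraries and 2 to 38 leaving out 1 library. P14 against P10 TRAP called 0, with 37 without a filter, 31 by DESeq2 and 0 to 17 leaving out 1 library. EU at 8 weeks against P14 called 0, with 1 by DESeq2 and 0 to 18 leaving out 1 library. Chase against P10 called 0, with 48 without a filter and 60 by DESeq2. The sarm1ko libraries against P14 called 49, with 6 with all 5 P14 libraries and 38 to 60 leaving out 1 library, and against chase 57, with 27 to 67. EU labelled fmr1ko called 4, with 19 without a filter, 21 by DESeq2, 8 by limma, 8 with the GC trend removed, 0 under the replicate block, 2 with all 5 P14 libraries and 0 to 21 leaving out 1 library. TRAP labelled fmr1ko called 0, with 1 by DESeq2 and 0 to 1 leaving out 1 library. Sorted cells labelled fmr1ko called 0, with 15 without a filter, 52 by DESeq2, 5 by limma and 2 with the length trend removed. The cause of these shifts was not tested. Shares of all genes called are not given beside these counts, so a shift in a count need not be particular to the members.

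The shared digit of the title codes was fitted as a replicate block, though it met no rule for pairing. It gave 31 members for P14 against P10 EU, 57 for sarm1ko against P14 and 58 for sarm1ko against chase. Added after the data were seen, the block gave 8 members for TRAP against EU in the LGN and 0 for SC against LGN TRAP, each with 1 residual degree of freedom. No paired analysis was possible for SC EU against immunopanned cells because the codes of the immunopanned libraries carry no shared digit. Of the fold changes of named members, 367 kept their side of the threshold and 45 lost it under the other settings, and 166 kept and 88 lost it with 1 library left out. Groups of 2 to 3 libraries, unequal ribosomal RNA and mitochondrial content and the doubted fmr1ko labels limit what the counts show.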
